A study of Homo sapiens with 9 samples.

Results

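TE13 is an established human esophageal squamous cell carcinoma (ESCC) line. Cells were transfected with control siRNA, or with PARylator siRNA.1 or PARylator siRNA.2, each of which targets LINC00885, the lncRNA that the study calls PARylator. Poly(A)+ RNA was sequenced in 3 libraries per condition, 9 in all, described as biological replicates, and the comparison rests on a single control siRNA. The time between transfection and RNA extraction is not given in the sources used here. The 10 genes described are enzymes and cofactors that write or erase poly(ADP-ribose) (PAR) or mono-ADP-ribose: PARP1, PARP2, PARP3, PARP4, TNKS, TNKS2, PARG, HPF1, MACROD1 and OARD1. They were chosen by symbol, because the study ties PARylator to PARylation, and each had 1 row among the 60605 genes of the deposited table. All 10 were among the 21395 genes that passed the filter on low values, an average of 0.1 FPKM or more (fragments per kilobase of exon, scaled to library depth).

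PARylation is the transfer of ADP-ribose units from NAD+ onto proteins as chains. PARP1 and PARP2 are switched on by DNA breaks and, together with HPF1, modify serine residues on histones and on themselves, which recruits repair factors. Tankyrases build PAR on other targets, and PARG cuts the chains. The last ADP-ribose is taken off serine by ADPRS, and off other residues by macrodomain hydrolases such as MACROD1 and OARD1. The question put to the libraries was whether the mRNA of this enzyme set changed when PARylator was silenced.

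Total counts lay between 15337917 and 17899074 in the control libraries, between 15374616 and 17762752 after siRNA.1, and between 19213164 and 22559998 after siRNA.2. LINC00885 itself was counted 6, 7 and 12 times in the control siRNA libraries. Its counts were 4, 5 and 2 after siRNA.1, and 2, 0 and 4 after siRNA.2. The fall of LINC00885 did not pass the test with either siRNA (edgeR adjusted p = 0.376 and 0.0659), so the silencing rests on very few reads here. The study itself reported the knockdown by qPCR. Mitochondrial genes took 7.46% to 7.66% of the counts in the control libraries, 4.99% to 5.06% after siRNA.1 and 5.54% to 5.56% after siRNA.2. The summed level of 8 squamous epithelial markers was 775 to 806 FPKM in the control libraries, 574 to 616 FPKM over the 6 libraries of both knockdowns. These markers did not move as a group: KRT5 (142 FPKM in the control mean, 40.0 and 55.8 after siRNA.1 and siRNA.2), SFN (305, 180 and 182), KRT17 and TP63 fell after both siRNAs, while KRT6A, PERP and DSG3 rose after both. Of 9 markers of fibroblasts, leukocytes and endothelium, 3 passed the filter (COL1A1, PTPRC and VWF). Their summed level was at most 2.66 FPKM in any library. The others averaged under 0.1 FPKM, and the B-cell marker MS4A1 was at 0 in all libraries. Whether the mitochondrial or the marker values play a part in the values below was not tested, and in bulk samples fewer cells of a type and less RNA per cell cannot be told apart.

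Close neighbours on the opposite strand lie beside the start sites of 5 of the 10 genes. These are PARP2, PARP3 and PARG, which were higher after siRNA.2, and TNKS2 and OARD1, which were lower. PARP1, also higher after siRNA.2, has none, and neither has PARP4, which was lower. The share of all genes with such a neighbour was not counted. In GENCODE 44 the start of PARP2 is 228 bases from that of RPPH1, the RNA of RNase P, the start of PARP3 is 459 bases from that of RRP9, a component of the U3 snoRNP, and the start of PARG is 22 bases from that of TIMM23B, a mitochondrial import gene. The start of TNKS2 is 117 bases from that of the lncRNA TNKS2-DT and the start of OARD1 is 618 bases from that of NFYA. The starts of RPPH1, TIMM23B and TNKS2-DT lie within the promoter windows of PARP2, PARG and TNKS2, and that of RRP9 lies outside the PARP3 window. The windows printed are those of PARP2, PARP3 and PARG, the genes of this group that were higher after siRNA.2. Each holds 300 bases, 250 before and 50 after the RefSeq start in GRCh38.p14, and the capitals mark the cAMP response element TGACGTCA in PARP2 and the ETS core CCGGAA, read on either strand, in PARP3 and PARG. The windows are chr14:20343385-20343684 on the plus strand for PARP2, chr3:51942113-51942412 on the plus strand for PARP3, and chr10:49941978-49942277 on the minus strand for PARG, each printed 5′ to 3′ along its gene.
PARP2: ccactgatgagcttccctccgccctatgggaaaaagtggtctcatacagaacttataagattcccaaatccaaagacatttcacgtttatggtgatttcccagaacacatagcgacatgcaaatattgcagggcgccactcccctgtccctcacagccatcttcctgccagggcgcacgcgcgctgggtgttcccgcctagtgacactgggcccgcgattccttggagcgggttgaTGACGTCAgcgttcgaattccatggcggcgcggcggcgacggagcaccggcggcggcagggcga
PARP3: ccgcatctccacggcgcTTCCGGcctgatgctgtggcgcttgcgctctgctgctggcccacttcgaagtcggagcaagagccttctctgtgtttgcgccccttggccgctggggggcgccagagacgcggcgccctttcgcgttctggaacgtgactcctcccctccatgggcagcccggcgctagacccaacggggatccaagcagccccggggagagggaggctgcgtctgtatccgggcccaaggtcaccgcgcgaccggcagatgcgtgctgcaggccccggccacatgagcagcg
PARG: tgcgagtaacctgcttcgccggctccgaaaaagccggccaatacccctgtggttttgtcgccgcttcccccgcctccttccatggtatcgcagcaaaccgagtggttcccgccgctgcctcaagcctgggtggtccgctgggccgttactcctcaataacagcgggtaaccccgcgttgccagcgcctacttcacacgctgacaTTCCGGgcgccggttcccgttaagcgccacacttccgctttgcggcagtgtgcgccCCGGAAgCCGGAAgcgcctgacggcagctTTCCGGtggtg

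Among the 35116 RefSeq windows of this length, 1.85% hold TGACGTCA and 17.2% hold CCGGAA on at least 1 strand. The PARP2 window held 1 match to TGACGTCA, the PARP3 window 1 match to CCGGAA and the PARG window 4. The PARP2 window also held 1 GC box (GGGCGG, in 45.0% of windows) and 1 interferon-gamma activated sequence (TTCNNNGAA, in 7.66%). Neither TGACGTCA nor CCGGAA was found in the PARP1 window, which held 2 GC boxes, and no motif searched, including the interferon-stimulated response element (in 3.57% of windows), was found in the TNKS2 window. CCGGAA also stood 1 time each in the windows of OARD1, which fell after both siRNAs, and of HPF1, which did not pass, so it was not limited to genes that rose. The promoters of PARP4 and TNKS were not searched. A match is a description of letters, and no binding was measured here.

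In the control libraries the deposited FPKM put PARP4 highest at 25.8 ± 1.28 (SD, n = 3), followed by PARP1 at 19.4 ± 0.322 and TNKS2 at 19.1 ± 0.922, whose ranges overlapped, and PARP2 at 14.5 ± 0.823. HPF1 at 7.45 ± 1.52 and PARG at 7.39 ± 0.901 could not be ordered, and neither could the 3 lowest genes, OARD1 at 3.20 ± 0.196, TNKS at 3.12 ± 0.0954 and PARP3 at 2.91 ± 0.310, below MACROD1 at 4.10 ± 0.607. This order depends on gene length. The deposited exonic length of PARP1 is 18399 bases against 3978 in its canonical transcript, a ratio of 4.63, and the ratios are 2.22 for PARP2, 2.05 for OARD1 and 1.00 for TNKS2. Per kilobase of the canonical transcript, a scale chosen after the data were seen, PARP1 was the highest of the 10 at 89.6 ± 1.48, above PARP2 at 32.3 ± 1.82 and PARP4 at 28.7 ± 1.43. This scale still counts reads from all deposited exonic bases, so it raises genes with a high length ratio. Neither order is settled. Fold changes between conditions are unaffected by the choice of length.

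With siRNA.1, 2 of the 10 genes rose and 3 fell, and over all genes tested 15.0% were called higher and 15.2% lower (adjusted p under 0.05). With siRNA.2, 4 rose and 3 fell, where 15.8% of all genes were higher and 15.1% lower. PARP2 and PARG rose with both siRNAs and PARP4 and OARD1 fell with both, where 11.1% of all genes were higher with both and 10.2% lower with both. The changes were small. In absolute log2 fold change the 10 genes had a median of 0.141 after siRNA.1 (0.304 over all genes tested) and of 0.243 after siRNA.2 (0.305), and no mean of these genes moved outside 75.8% to 138% of its control mean. The siRNAs share their control libraries, so the values with each are set side by side and are not independent.

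PARP1 (ENSG00000143799, chr1:226360210-226408154, minus strand) makes most of the PAR formed after DNA damage. Its level was 19.12, 19.74 and 19.28 FPKM in the control libraries, 18.89, 17.62 and 18.05 FPKM after siRNA.1, and 21.93, 22.49 and 23.63 FPKM after siRNA.2. The 3 conditions did not overlap: the siRNA.1 libraries lay below the control libraries and the siRNA.2 libraries above them. The log2 fold change was -0.12 after siRNA.1 (SE 0.041, edgeR adjusted p = 0.0169) and 0.22 after siRNA.2 (SE 0.041, adjusted p = 1.30e-06). The direct test of siRNA.2 against siRNA.1 gave 0.34 (95% interval 0.26 to 0.42, edgeR adjusted p = 5.79e-14). With 4983 to 9810 counts per library PARP1 was the most deeply counted of the 10 genes. The pseudogene copies PARP1P1 and PARP1P2 had at most 1 count in any library. The fall of PARP1 after siRNA.1 did not hold under every setting: it was -0.11 with an adjusted p of 0.0501 without a filter on low values and -0.09 with an adjusted p of 0.0579 when libraries were scaled by their totals, limma gave adjusted p values of 0.140 and 0.136 with pseudocounts of 0.1 and 1, and leaving out control siRNA library 2, siRNA.1 library 2 or siRNA.1 library 3 gave edgeR adjusted p values of 0.0726, 0.116 and 0.0658.

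PARP2 (ENSG00000129484, chr14:20343615-20357904, plus strand), the closest relative of PARP1 in break repair, rose modestly with both siRNAs. Its level was 13.59, 14.88 and 15.12 FPKM in the control libraries, 16.60, 17.49 and 15.72 FPKM after siRNA.1, and 17.22, 16.73 and 17.44 FPKM after siRNA.2. Every library with an siRNA against PARylator was above all 3 control libraries. The log2 fold change was 0.16 after siRNA.1 (SE 0.065, edgeR adjusted p = 0.0416) and 0.23 after siRNA.2 (SE 0.064, adjusted p = 0.00217). The siRNAs differed by 0.06 (95% interval -0.06 to 0.19, adjusted p = 0.645). The siRNA.1 call stood near the threshold: without a filter on low values its edgeR adjusted p was 0.0503, and it was 0.237 without control siRNA library 1, the lowest of the 9, where the log2 fold change was 0.12. Leaving out control siRNA library 2, siRNA.1 library 1, siRNA.1 library 2 or siRNA.2 library 3 gave edgeR adjusted p values of 0.0526, 0.0779, 0.165 and 0.0501, and a fit of the 2 groups alone gave 0.0523.

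PARP3 (ENSG00000041880, chr3:51942345-51948867, plus strand) is the third PARP activated by DNA breaks and acts in double-strand break repair. It had 2.89, 2.61 and 3.23 FPKM in the control libraries, 2.96, 3.70 and 4.16 FPKM after siRNA.1, and 3.90, 4.05 and 4.06 FPKM after siRNA.2. The siRNA.2 libraries lay together above the control libraries, while the siRNA.1 libraries spread from within the control range to the highest of the 9. Its log2 fold change of 0.45 after siRNA.2 (SE 0.135, edgeR adjusted p = 0.00448) was the highest among the 10 genes, and the value after siRNA.1, 0.28 (95% interval 0.004 to 0.55, adjusted p = 0.127), did not pass. The latter rested on single libraries: it was 0.40 without siRNA.1 library 1 (edgeR adjusted p = 0.0313) and 0.16 without siRNA.1 library 3 (adjusted p = 0.540). The siRNAs differed by 0.17 (95% interval -0.09 to 0.43, edgeR adjusted p = 0.507).

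HPF1 (ENSG00000056050, chr4:169729470-169757944, minus strand) completes the active site with which PARP1 and PARP2 modify serine. It was at 6.46, 9.20 and 6.68 FPKM in the control libraries, 8.12, 7.14 and 6.20 FPKM after siRNA.1, and 8.95, 7.47 and 8.54 FPKM after siRNA.2. The conditions overlapped, and control library 2 was the highest of all 9. The log2 fold change was -0.08 after siRNA.1 (95% interval -0.36 to 0.19, edgeR adjusted p = 0.730) and 0.15 after siRNA.2 (95% interval -0.11 to 0.42, adjusted p = 0.455). Control library 2 weighed on both: without it the siRNA.1 value turned to 0.09 and the siRNA.2 value was 0.33 (edgeR adjusted p = 0.107), and without control library 1 the siRNA.2 value was 0.06 (adjusted p = 0.823). HPF1 had 141 to 274 counts per library, so a change of the size seen in PARP1 was not detectable at this depth.

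**Figure D1:**
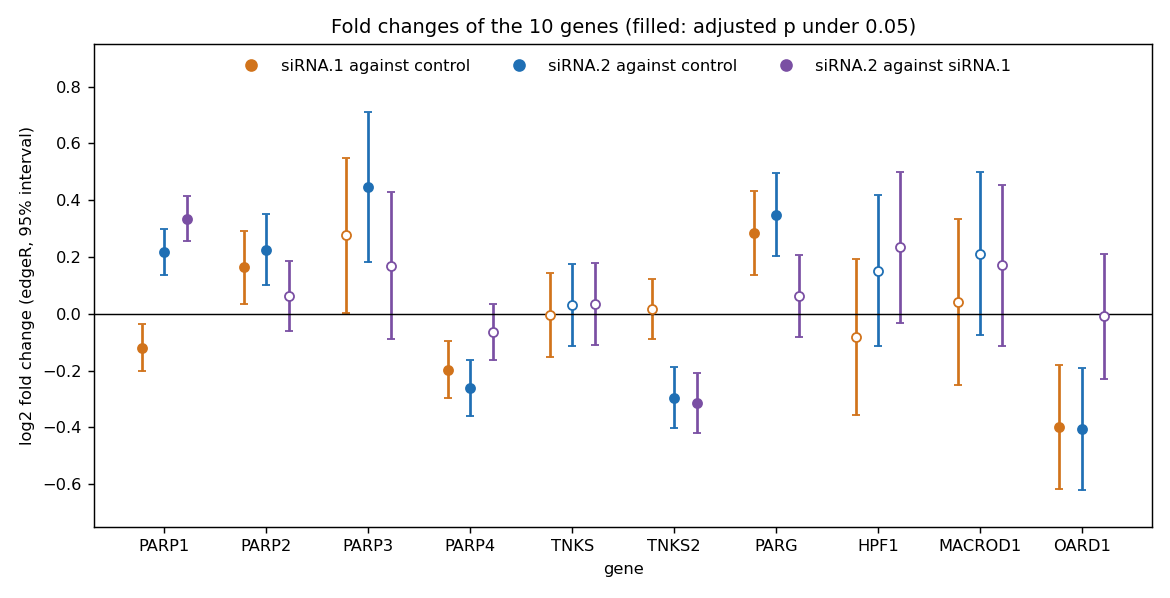
The log2 fold change of each gene from edgeR with its 95% interval for siRNA.1 against control, siRNA.2 against control, and siRNA.2 against siRNA.1, filled where the adjusted p was under 0.05. PARP1 and TNKS2 are the genes with a filled point for siRNA.2 against siRNA.1, at 0.34 and -0.31.

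PARP4 (ENSG00000102699, chr13:24420931-24512778, minus strand), the ADP-ribosyltransferase of vault particles, fell with both siRNAs. Its level was 26.80, 26.21 and 24.34 FPKM in the control libraries, 22.47, 23.54 and 22.77 FPKM after siRNA.1, and 22.55, 21.01 and 21.52 FPKM after siRNA.2. All 6 knockdown libraries were below all 3 control libraries. Relative to control siRNA the log2 change was -0.20 after siRNA.1 (SE 0.051, edgeR adjusted p = 6.87e-04) and -0.26 after siRNA.2 (SE 0.051, adjusted p = 2.58e-06), and the siRNAs differed by -0.06 (adjusted p = 0.526). MVP, the major shell protein of the vault, was at 9.19 FPKM in the control mean, 8.68 FPKM after siRNA.1 and 6.41 FPKM after siRNA.2, and it fell after siRNA.2 (-0.53, edgeR adjusted p = 3.38e-12) and not detectably after siRNA.1 (-0.11, adjusted p = 0.272). TEP1, which binds vault RNA, fell with both (-0.30 and -0.43, edgeR adjusted p = 9.75e-04 and 3.72e-07).

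The tankyrases TNKS and TNKS2 modify AXIN1, telomere and spindle proteins, marking several of them for destruction. TNKS2 (ENSG00000107854, chr10:91798426-91865475, plus strand) had 20.18, 18.55 and 18.62 FPKM in the control libraries, 19.15, 20.23 and 19.81 FPKM after siRNA.1, and 16.75, 15.71 and 14.69 FPKM after siRNA.2. The siRNA.2 libraries lay below the other 6, which overlapped with each other. On the log2 scale the change was -0.30 after siRNA.2 (SE 0.054, edgeR adjusted p = 5.15e-07) and 0.02 after siRNA.1 (95% interval -0.09 to 0.12, adjusted p = 0.857). The direct test of siRNA.2 against siRNA.1 gave -0.31 (95% interval -0.42 to -0.21, edgeR adjusted p = 3.51e-07). PARP1 and TNKS2 were the 1 gene higher and the 1 gene lower of the 10 in that comparison, where 6.10% of all genes were higher and 6.06% lower. Over the 9 libraries their log2 levels had a Pearson r of -0.969, which describes the 3 conditions more than 9 independent points.

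TNKS (ENSG00000173273, chr8:9555912-9782346, plus strand) had 3.21, 3.02 and 3.13 FPKM in the control libraries, 3.27, 3.21 and 3.04 FPKM after siRNA.1, and 3.29, 2.85 and 3.48 FPKM after siRNA.2. Its ranges overlapped throughout. edgeR put the log2 fold change at -0.004 after siRNA.1 (95% interval -0.15 to 0.14, edgeR adjusted p = 0.987) and 0.03 after siRNA.2 (95% interval -0.12 to 0.18, adjusted p = 0.825). Those intervals leave out a fall of the size seen in TNKS2 after siRNA.2.

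PARG (ENSG00000227345, chr10:49818279-49970203, minus strand), the enzyme that degrades most PAR, rose with both siRNAs. It had 7.34, 8.32 and 6.52 FPKM in the control libraries, 9.34, 9.09 and 9.04 FPKM after siRNA.1, and 10.34, 9.51 and 8.60 FPKM after siRNA.2. No control library reached any knockdown library. The fitted log2 change was 0.28 after siRNA.1 (SE 0.076, edgeR adjusted p = 0.00105) and 0.35 after siRNA.2 (SE 0.075, adjusted p = 2.53e-05), and the siRNAs differed by 0.06 (95% interval -0.08 to 0.21, adjusted p = 0.699). Without control library 3, the lowest of the 9, the siRNA.1 value was 0.20 and did not pass (edgeR adjusted p = 0.0670). PARGP1, a pseudogene copy with which PARG may share reads, had 80 to 104 counts in the control libraries. It had 111 to 126 after siRNA.1 and 135 to 170 after siRNA.2, and PARG itself 581 to 1056 over the 9. These counts are not scaled to library totals. The log2 fold change of PARGP1 was 0.30 after siRNA.1 (edgeR adjusted p = 0.208) and 0.44 after siRNA.2 (edgeR adjusted p = 0.0357).

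The macrodomain hydrolases did not move together. OARD1 (ENSG00000124596, chr6:41033627-41097787, minus strand), which removes ADP-ribose from glutamate, was at 3.40, 3.18 and 3.01 FPKM in the control libraries, 2.87, 2.21 and 2.31 FPKM after siRNA.1, and 2.26, 2.38 and 2.63 FPKM after siRNA.2. All 6 knockdown libraries lay below the control libraries. Relative to control siRNA the log2 change was -0.40 after siRNA.1 (SE 0.111, edgeR adjusted p = 0.00187) and -0.41 after siRNA.2 (SE 0.110, adjusted p = 0.00111), and the siRNAs differed by -0.009 (95% interval -0.23 to 0.21). Of its deposited exonic bases 14.4% also belong to other genes, 747 of them to UNC5CL, which had at most 11 counts in a library, 120 to APOBEC2, with at most 4 counts, and 75 to NFYA, with up to 640 counts, more than OARD1 itself.

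MACROD1 (ENSG00000133315, chr11:63998558-64166113, minus strand), a mainly mitochondrial hydrolase, was at 3.45, 4.65 and 4.21 FPKM in the control libraries, 5.05, 3.97 and 3.88 FPKM after siRNA.1, and 5.04, 4.42 and 4.93 FPKM after siRNA.2. The conditions overlapped. On the log2 scale the change was 0.04 after siRNA.1 (95% interval -0.25 to 0.34, edgeR adjusted p = 0.886) and 0.21 after siRNA.2 (95% interval -0.07 to 0.50, adjusted p = 0.300). MACROD1 had 111 to 233 counts per library, the fewest of the 10 at the low end, and the intervals are wide enough to include the change seen in PARG.

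**Figure D2:**
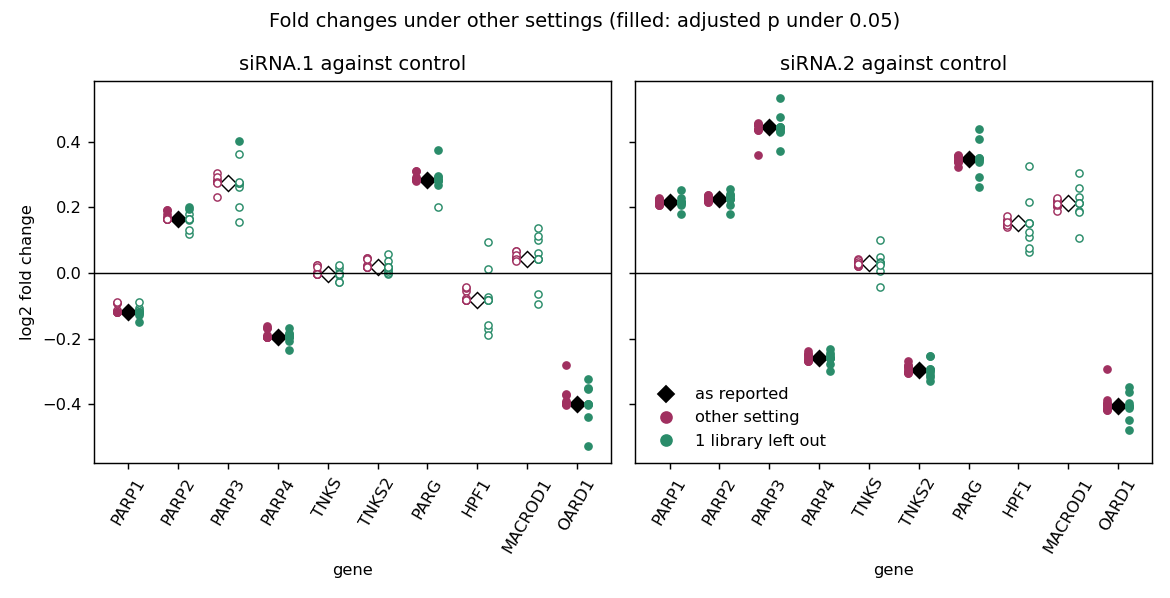
The log2 fold change of each gene as reported, under 10 other settings and with each of the 9 libraries left out, for siRNA.1 against control and siRNA.2 against control, filled where the adjusted p was under 0.05. All points of PARP4 and OARD1 are filled in both panels, whereas PARP1 and PARP2 after siRNA.1 include open points.

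The close neighbours were compared because the strandedness of the libraries is not given in the sources used here, so reads from a gene and its antisense partner cannot be told apart where they overlap. RRP9, beside PARP3 and named after its values were seen, had 14.59, 15.93 and 15.69 FPKM in the control libraries, 23.99, 21.13 and 23.14 FPKM after siRNA.1, and 19.98, 22.31 and 22.82 FPKM after siRNA.2. It rose with both siRNAs by 0.54 and 0.48 (edgeR adjusted p = 2.69e-08 and 4.58e-07), and it shares no exonic base with PARP3. TIMM23B, which shares 37 exonic bases or 0.717% of the length of PARG, had 2.49, 2.13 and 2.15 FPKM in the control libraries, 3.74, 4.17 and 3.43 FPKM after siRNA.1, and 2.92, 2.89 and 3.12 FPKM after siRNA.2. It rose by 0.72 and 0.39 (edgeR adjusted p = 1.79e-05 and 0.0335), so PARG and TIMM23B were both higher with both siRNAs. TIMM23B-AGAP6, which starts 29 bases from PARG, did not pass with either (-0.26 and 0.28, edgeR adjusted p = 0.623 and 0.580). NFYA, which shares 75 exonic bases with OARD1, did not pass with either siRNA (0.09 and 0.06, edgeR adjusted p = 0.535 and 0.665). RPPH1, beside PARP2, had 0 counts in the 9 libraries of poly(A)+ RNA, which does not show whether it was transcribed. Antisense lncRNAs that share 71 and 26 exonic bases with PARP2 had at most 7 counts each in a library.

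For each gene called in 1 direction after both siRNAs, and for PARP1, the genes most like it in log2 level over the 9 libraries were sought among 11868 genes that averaged 1 FPKM or more. PARP1 was most like PPIB (Pearson r = 0.9919), FAM20C (0.9819), FKBP3 (0.9709), TSPAN13 (0.9649) and AGAP2-AS1 (0.9640). PPIB averaged 63.7, 58.6 and 76.0 FPKM in the control, siRNA.1 and siRNA.2 libraries, the same order of conditions as PARP1. PARG was most like SYVN1 (0.9879), LHX4 (0.9808) and OCIAD1 (0.9715), PARP4 like EFR3A (0.9923), DDX17 (0.9775) and SCRN2 (0.9761), PARP2 like CPNE7 (0.9834), ZNF273 (0.9782) and DPP7 (0.9718), and OARD1 like RPA1 (0.9735), TST (0.9527) and ELOVL6 (0.9485). The 9 points fall in 3 conditions, and the values are given as a description.

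The list of mono-ADP-ribosyltransferase PARPs, most of which add single ADP-ribose units, holds PARPs that are not among the 10 genes. It also holds ZC3HAV1, which fell after siRNA.1 (-0.31, edgeR adjusted p = 1.08e-10) and did not pass after siRNA.2. Of 10 tested, 7 rose and 2 fell after siRNA.1, and 6 rose and 1 fell after siRNA.2. Among all genes, 15.0% and 15.8% were higher and 15.2% and 15.1% lower after the respective siRNAs. The list medians were 0.363 and 0.272, against 0.00698 and 0.182 for the 10 genes. The 10 genes include HPF1, PARG, MACROD1 and OARD1, so these medians do not compare PARPs alone. PARP9, the partner of DTX3L in interferon-responsive ADP-ribosylation, averaged 10.7, 22.8 and 20.6 FPKM in the control, siRNA.1 and siRNA.2 libraries (1.07 and 0.94, edgeR adjusted p = 7.29e-96 and 1.62e-74). PARP10 averaged 11.9, 22.4 and 18.4 FPKM, PARP6 averaged 4.58, 8.75 and 7.33 FPKM, and PARP11 averaged 1.51, 0.827 and 1.07 FPKM, so that PARP11 was the member that fell with both. For PARP1, PARP2 and PARP3 the widest value after either siRNA was 0.45.

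Over all genes, 15.0% and 15.8% were higher and 15.2% and 15.1% lower after siRNA.1 and siRNA.2. Among the other ADP-ribose hydrolases, none of 6 tested genes rose and 1 fell. The gene was NUDT9, a mitochondrial ADP-ribose pyrophosphatase, which fell with both siRNAs (-0.53 and -0.61, edgeR adjusted p = 4.59e-04 and 2.37e-05). ADPRS, which takes ADP-ribose off serine after PARG, was at 18.5, 19.9 and 19.9 FPKM and did not pass (0.08 and 0.10, adjusted p = 0.550 and 0.445). NUDT16 and NUDT5 did not pass either. Of the 9 hydrolases tested when the 3 of the 10 genes are counted, PARG rose and OARD1 and NUDT9 fell with both siRNAs. Over all genes, 11.1% were higher and 10.2% lower with both.

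Of the 11 PAR readers and partners in single-strand break repair, 2 rose and 2 fell after siRNA.1 and 1 rose and 2 fell after siRNA.2, shares near those over all genes (15.0% higher and 15.2% lower, then 15.8% and 15.1%). XRCC1, the scaffold recruited to PAR, was at 11.1 ± 1.19, 12.6 ± 0.962 and 11.9 ± 0.871 FPKM (SD, n = 3) and did not pass (edgeR adjusted p = 0.207 and 0.495). TIMELESS, a replication fork protein that binds PARP1, fell from 17.4 to 13.2 and 12.8 FPKM (-0.42 and -0.45, adjusted p = 1.43e-11 and 2.26e-13). LIG3, the ligase carried by XRCC1, fell after siRNA.1 alone (-0.44, adjusted p = 2.39e-05), and the siRNAs differed by 0.31 (edgeR adjusted p = 0.00994). APTX, which clears abortive ligation ends, rose with both (0.26 and 0.19, adjusted p = 6.35e-04 and 0.0146).

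NAMPT, the rate-limiting enzyme that recycles nicotinamide into NAD+, the substrate of every PARP, rose from 17.6 ± 0.0600 FPKM to 30.1 ± 0.157 FPKM after siRNA.1, and to 32.21, 31.64 and 32.07 FPKM after siRNA.2 (0.75 and 0.85, edgeR adjusted p = 8.81e-84 and 2.67e-108). It was the single riser among the 9 tested genes of NAD+ synthesis and transport, of which 2 fell after siRNA.1 and 3 after siRNA.2, where between 15.0% and 15.8% of all genes were called in each direction. NADSYN1, which makes NAD+ by the deamidated route, fell with both (-0.34 and -0.46, adjusted p = 1.13e-06 and 1.10e-11), and NMNAT2 fell after siRNA.2 (-0.40, adjusted p = 1.18e-04). NMRK1 did not pass.

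Of 11 tested tankyrase partners and targets, 3 rose and 1 fell after siRNA.1, and 3 rose and 3 fell after siRNA.2, where between 15.0% and 15.8% of all genes were called in each direction. AXIN1, the scaffold of the beta-catenin destruction complex, rose with both siRNAs (0.37 and 0.43, edgeR adjusted p = 1.13e-05 and 1.34e-07), and so did BLZF1, a Golgi protein (0.60 and 0.47, adjusted p = 4.05e-26 and 1.15e-16). TNKS1BP1, which binds tankyrase 1, fell after siRNA.2 (-0.30, adjusted p = 7.14e-08) as TNKS2 did, and USP25, a deubiquitinase of tankyrases, rose after siRNA.2 (0.24, adjusted p = 0.00375). AMOT, with a mean under 1 FPKM and named after its values were seen, fell with both by the widest margin of the list, from 1.42 to 0.603 and 0.507 FPKM.

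**Figure D3:**
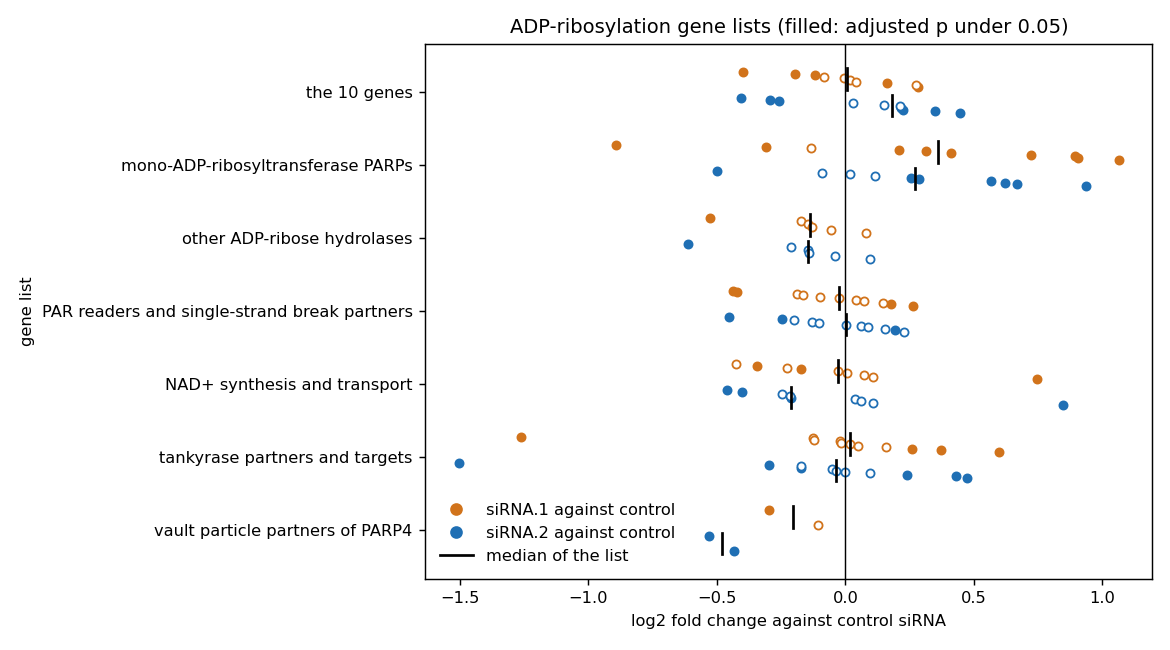
The log2 fold change against control siRNA of every tested gene in the 10 genes and 6 ADP-ribosylation lists, after siRNA.1 and siRNA.2 in separate rows, filled where the adjusted p was under 0.05, and black bars for list medians. The mono-ADP-ribosyltransferase PARPs have the highest medians, 0.363 and 0.272, and the vault particle partners the lowest, -0.203 and -0.482.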

How the data were processed

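RNA-seq of 9 TE13 libraries was grouped by the labels. The authors captured poly(A)+ RNA, aligned reads with STAR to GRCh38 and counted them per gene with featureCounts. Versions, annotation release and strandedness are not given in the sources used here. The authors deposited raw counts and FPKM per gene without pooling. FPKM returned from the counts, the exonic length and the library total within 0.0051 for 100% of values. Counts were tested with edgeR 4.0.16 in R 4.3.3 (quasi-likelihood, TMM, a single fit of 9 libraries, mean of at least 0.1 FPKM, Benjamini-Hochberg, threshold 0.05). DESeq2 1.42.0, limma 3.58.1, other scalings and filters, and leaving out libraries were alternatives. Scripts were tested on simulated data.

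Named genes were the 10 genes, the 4 genes per list with the highest mean absolute log2 fold change over both siRNAs among those with a mean of at least 1 FPKM, ADPRS, XRCC1 and NAMPT, neighbours and copies, and the 3 to 5 most alike genes. One gene that this rule names is not reported here. The genes and lists were chosen with earlier results of these data known. The labels call the libraries biological replicates without saying how the cultures were kept apart, so p-values measure the spread between these libraries.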

Additional observations from a re-analysis of the deposited data

Results flagged for a closer look

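Among the 10 genes and the genes named from the pathway lists, the effects of the siRNAs differed for 8 by the direct edgeR test. In that test of siRNA.2 against siRNA.1, 6.10% of all genes were higher and 6.06% lower. Most of the list genes were named for large changes in these same libraries, so the count of 8 is no measure of the lists. Of the 10 genes, PARP1 differed by 0.34 on the log2 scale, below the control libraries with siRNA.1 and above them with siRNA.2, and TNKS2 by -0.31. Among the list genes, LIG3 differed by 0.31, PARP6 by -0.24, PARP10 by -0.27, NMNAT2 by -0.37, TNKS1BP1 by -0.18 and MVP by -0.42.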

How the results depend on the processing

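Across 30 fold changes of the 10 genes and 19 alternatives each, 536 of 570 values kept their direction and side of the threshold, 16 lost the call, 1 gained it and 17 changed sign. The 7 calls with siRNA.2 and the calls of PARP1 and TNKS2 between the siRNAs held under all 19. Of the 5 genes called with siRNA.1, 3 were called without a filter on low values, and 3 to 5 with a library left out. In siRNA.2 against siRNA.1, 2603 genes were called, 1437 by limma with a pseudocount of 0.1 and 1414 with 1, and 1906 to 2696 with a library left out. TNKS with siRNA.1 turned to 0.02306 with library totals, 0.002856 without a filter, 0.02348 by limma with 0.1 and 0.01842 with 1. With a library left out, some fold changes changed sign in at least 1 fit, and their full ranges follow. With siRNA.1, TNKS ran from -0.028 to 0.025 and TNKS2 from -0.003459 to 0.059. HPF1 with siRNA.1 ran from -0.189 to 0.093 and MACROD1 from -0.095 to 0.136. With siRNA.2, TNKS ran from -0.042 to 0.101. Between the siRNAs, TNKS ran from -0.038 to 0.105 and OARD1 from -0.084 to 0.121. None of these was called. The cause was not tested.

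No pairing by library number was seen. Deviations from the condition means correlated at -0.12 to 0.049 over 9 same-number pairs, and at -0.0627 to 0.122 over the other pairs. This is a weak check with 3 libraries per condition. Whether a library number marks a shared culture was not tested. With the number as a replicate block, 6215, 6358 and 2342 genes were called in the 3 comparisons, and PARP2 with siRNA.1 was 0.164 with an edgeR adjusted p of 0.0562. HPF1, MACROD1 and PARP3 had at most 293 counts in a library, which limits the precision of their fold changes.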
